A study of Mus musculus with 16 samples.

Results

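Mouse oocytes labelled as lacking both histone deacetylases HDAC1 and HDAC2 were compared with oocytes labelled as lacking HDAC1 alone. By these labels the comparison reads what the loss of Hdac2 changes once Hdac1 is deleted. It uses the 4 arrays titled HDAC1/2 conditional knocked-out and the 4 titled HDAC1 conditional knocked-out, 8 of the 16 arrays of the series, and takes every probe set that the platform annotation pairs with exactly 1 gene symbol, 21218 probe sets for 18820 genes. The other 8 arrays, 4 of wild-type and 4 of Hdac2-knockout oocytes, entered the fit and were used to read the loss of Hdac2 with Hdac1 present. Each array holds total RNA of 80 oocytes from the ovaries of C57BL/6 mice 12 days old, when oocytes are growing.

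Both groups carry a Zp3-Cre transgene, whose promoter is active in growing oocytes, together with conditional alleles: of Hdac1 in the Hdac1 knockout, and of Hdac1 and Hdac2 in the double knockout. The labels do not give the Cre status of the wild-type mice, the deleted exons, or the number of animals behind a pool. They call the 4 arrays of a group biological replicates.

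HDAC1 and HDAC2 are closely related enzymes that remove acetyl groups from histone tails and other proteins. Both are the catalytic subunits of the Sin3, NuRD and CoREST complexes, which are recruited to promoters by sequence-specific repressors, and in many tissues either enzyme can stand in for the other. In the growing oocyte transcription is high while the mRNAs that will support maturation and the first cleavages are stored. The embryo's own genome is switched on later, in the mouse mainly at the 2-cell stage.

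The deposited values are on a log scale read here as log2, a base inferred from their range of 2.07 to 12.89 and not stated, and every fold rests on that reading. Medians of the tested probe sets lay between 5.20 and 5.26 in the Hdac1-knockout arrays and between 5.32 and 5.35 in the double-knockout arrays. Pairs of arrays correlated at 0.997 to 0.998 within the Hdac1 knockout, at 0.995 to 0.997 within the double knockout, and at 0.974 to 0.979 between them. In pooled oocytes, fewer cells that express a gene and less RNA per cell cannot be told apart.

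The deleted genes were examined first. Hdac1 (probe set 10516605) had values of 6.40, 6.53, 6.70 and 6.83 in the Hdac1-knockout arrays and of 7.72, 7.54, 7.61 and 7.75 in the double-knockout arrays, against group means of 9.28 in wild type and 9.64 in the Hdac2 knockout. All 8 knockout arrays were below wild type, and the double knockout lay above the Hdac1 knockout without overlap. The difference was 1.04 ± 0.083 (log2, SE; limma adjusted p = 5.22e-08; exact permutation p = 0.0286, two-sided, the smallest that 4 against 4 arrays allow), so the signal left was 15.8% of wild type in the Hdac1 knockout and 32.5% in the double knockout. A second probe set that carries the Hdac1 symbol (10447004) left 15.3% and 32.2%. The groups compared therefore also differ in the Hdac1 signal left, and the part of this difference in the results below was not tested.

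Hdac2 (probe set 10362520) read 11.16, 11.05, 11.14 and 11.16 in the Hdac1 knockout and 10.85, 10.81, 10.89 and 10.95 in the double knockout. The arrays did not overlap, yet the fall was only 0.25 ± 0.051 (log2, SE; limma adjusted p = 6.85e-04; exact permutation p = 0.0286), and 86.2% of the wild-type signal remained. In the Hdac2 knockout 93.5% of it remained. This probe set therefore does not show the Hdac2 deletion, and with the deleted exons not given in the sources used here it checks nothing about the label. The label itself was taken as given.

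**Figure D1:**
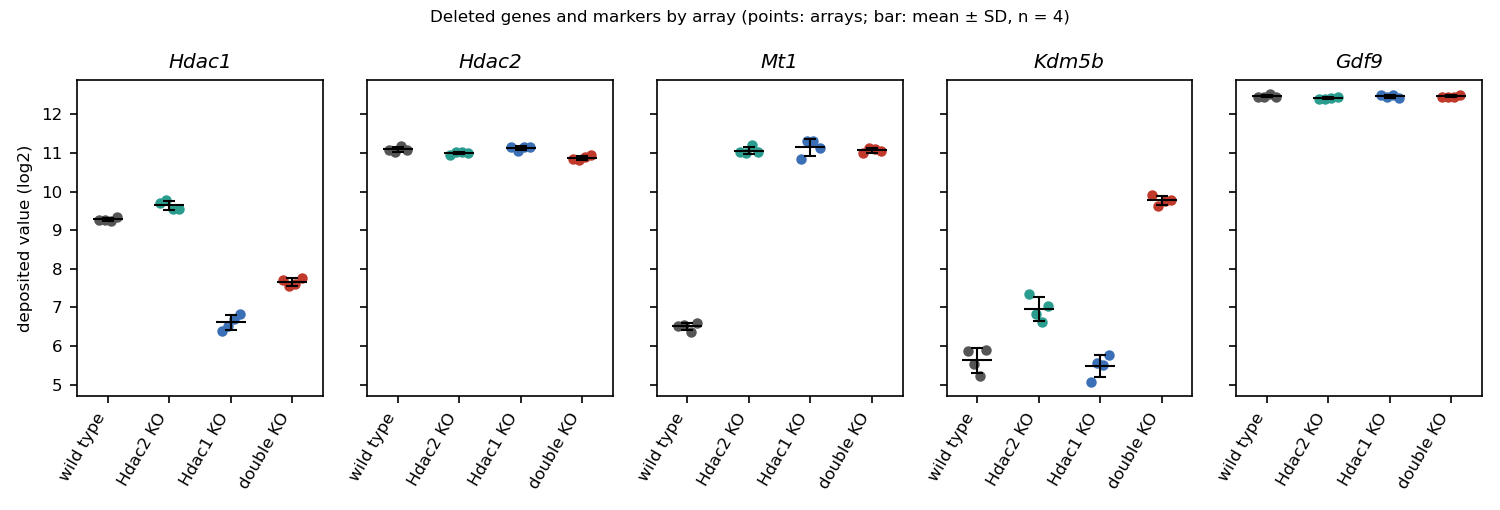
Deposited values (log2, vertical axis) of Hdac1, Hdac2, Mt1, Kdm5b and Gdf9 in each of the 16 arrays, by genotype; points are arrays and bars the mean ± SD of 4. Hdac1 lies below wild type in both groups compared and is higher in the double knockout, Hdac2 changes little, Mt1 is high in all 3 knockouts, Kdm5b is highest in the double knockout, and the oocyte gene Gdf9 is level.

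Oocyte markers were bright in both groups. Called markers stand beside 17.8% of all genes higher in the double knockout and 21.1% lower, at a limma adjusted p under 0.05. Of 9 oocyte markers measured, the zona pellucida genes Zp1, Zp2 and Zp3 and the growth factors Gdf9 and Bmp15 among them, all lay above the median of tested probe sets, with group means from 10.66 to 12.46, and 1 differed: Ddx4, a germ cell RNA helicase, fell by 0.26. Of 10 granulosa markers 2 rose, Gja1 by 0.90 and Wt1 by 0.56, and 0 fell. The defining genes Amh, Amhr2, Fshr and Foxl2 lay between 3.43 and 4.78. The summed level of the 10 (log2 of summed linear values) did not overlap, at 7.86 to 7.98 in the Hdac1 knockout and 8.11 to 8.43 in the double knockout. Of 10 theca and stroma markers 1 rose, Acta2, which did not pass in 11 of 14 alternatives. None of the 10 was above the median, and summed levels were 7.30 to 7.42 and 7.35 to 7.43. Of 8 blood and endothelial markers 2 fell, Pecam1 and Tek, and summed levels were 9.17 to 9.37 and 8.25 to 8.58, while Ptprc, Lyz2, Csf1r, Cdh5 and Kdr stayed between 3.46 and 3.85. The part of these differences in the results below was not tested.

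The double knockout differed from the Hdac1 knockout in a large part of the probe sets. Of 21218 probe sets 8220 differed at a limma adjusted p under 0.05 (38.7%), 3964 higher in the double knockout (18.7%) and 4256 lower (20.1%). All 4 arrays of one group lay beyond all 4 of the other for 3597 higher probe sets (17%) and 3951 lower ones (18.6%). In genes, each taken as its brightest probe set, 7326 of 18820 differed (38.9%), 3357 higher (17.8%) and 3969 lower (21.1%). The near balance of both directions depended on scaling. With each array centred on its median, which moves the median change from -0.01 to -0.11, 2886 probe sets were higher and 6907 lower, and higher calls went from 48.2% to 29.5% of all calls.

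Changes of 4-fold or more went almost entirely upward. At least 1.4-fold, the limit that the series' design text names, 1793 were higher (8.45%) and 1725 lower (8.13%). At least 2-fold, 623 were higher (2.94%) and 292 lower (1.38%). At least 4-fold, 185 were higher (0.872%) and 3 lower (0.0141%). At 16-fold or more 44 probe sets, of 33 genes, were higher and 0 lower.

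Increases of 4-fold or more were most frequent at middle levels. When the probe sets were divided into 5 equal classes by mean level over the 16 arrays, 116 of the 185 at 4-fold or more lay in the middle class, 23 in the next dimmer, 43 in the next brighter and 3 in the brightest. Falls lay higher on the scale: 38.2% of the class above the middle and 30.7% of the brightest were called lower, against 2.69% of the dimmest. Of 292 probe sets that fell 2-fold or more, 172 were in the class above the middle. The mean includes the double-knockout arrays themselves, so a gene that rises strongly is moved toward the middle class by its own rise.

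**Figure D2:**
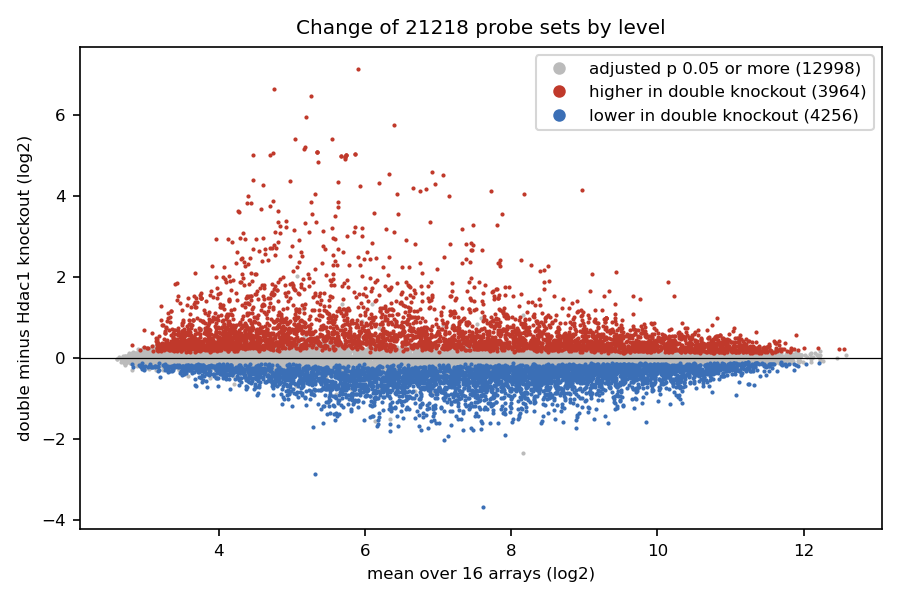
Change between the double and the Hdac1 knockout (log2, vertical axis) against mean level over 16 arrays (log2, horizontal axis) for each of 21218 probe sets; red points were higher (3964), blue points lower (4256) and grey points did not pass an adjusted p of 0.05. The cloud of large increases at middle levels has no counterpart below 0.

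The largest increases included genes known from the early embryo. Zfp352, a zinc finger gene transcribed in 2-cell embryos, had values of 3.90, 3.97, 3.76 and 3.88 in the Hdac1 knockout and 10.61, 11.16, 11.16 and 11.14 in the double knockout, a rise of 7.14 ± 0.435 (log2, SE; 141-fold; limma adjusted p = 1.94e-09). Rfpl4b, whose family is named for the ret finger protein, read 3.50, 3.48, 3.62 and 3.53 against 9.66, 10.39, 9.84 and 10.09 (88.5-fold). Pramel17, of the PRAME-like family that is expanded in rodents and expressed in germ cells, read 3.39, 3.11, 3.21 and 3.45 against 7.85, 8.50, 8.47 and 8.59 (33.4-fold). In each of the 3 genes every double-knockout array stood above every array of the other groups, and the Hdac1-knockout arrays lay at the bottom of the scale, where folds are understated.

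The promoters of these genes, from RefSeq (GRCm38.p6, 250 bases before to 50 after the annotated start, gene strand), are printed because the 3 genes rose from near the floor together. They were chosen after the values were seen. Capitals mark CG dinucleotides, the sites at which mammalian DNA is methylated.
Zfp352, chr4:90218570-90218869, plus strand: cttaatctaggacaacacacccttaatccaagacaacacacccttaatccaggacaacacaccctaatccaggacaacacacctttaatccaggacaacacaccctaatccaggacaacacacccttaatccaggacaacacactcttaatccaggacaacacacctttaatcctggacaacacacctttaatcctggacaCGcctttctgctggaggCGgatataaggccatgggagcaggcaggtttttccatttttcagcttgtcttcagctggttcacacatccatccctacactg
Rfpl4b, chr10:38821730-38822029, minus strand: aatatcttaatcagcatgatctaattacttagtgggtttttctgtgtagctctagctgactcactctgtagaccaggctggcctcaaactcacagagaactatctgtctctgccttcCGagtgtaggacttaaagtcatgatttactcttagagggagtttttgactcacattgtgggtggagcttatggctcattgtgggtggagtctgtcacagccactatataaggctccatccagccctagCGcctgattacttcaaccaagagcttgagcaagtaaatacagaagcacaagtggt
Pramel17, chr4:101843973-101844272, minus strand: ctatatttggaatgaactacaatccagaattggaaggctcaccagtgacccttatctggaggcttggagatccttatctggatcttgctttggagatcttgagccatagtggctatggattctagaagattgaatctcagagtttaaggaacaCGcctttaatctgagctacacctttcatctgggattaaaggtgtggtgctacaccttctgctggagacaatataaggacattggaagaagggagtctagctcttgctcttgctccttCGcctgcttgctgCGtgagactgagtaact
They hold 2, 2 and 3 CG dinucleotides, and 31.4% of the 32851 promoters of this length in the table hold 3 or fewer. All 3 contain the letters TATAAGG on the gene strand, beginning 28 bases before the annotated start in Zfp352 and Rfpl4b and 27 before it in Pramel17. These letters were searched after the sequences were seen, on both strands and without counting overlap with other motifs, and 2.17% of all promoters in the table hold them on either strand, 1.32% on the gene strand. Whether promoter composition differs between changed and unchanged genes could not be assessed: the table gives a promoter to 78.3% of the 18820 genes, under the 80% set for such a check, which is therefore void.

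Other members of the 15 largest increases encode proteins of many kinds. Tdpoz3, a TD and POZ domain gene of the early embryo, read 3.64, 4.08, 3.70 and 3.64 in the Hdac1 knockout and 9.001, 9.90, 9.95 and 9.98 in the double knockout (61.5-fold). Cd24a, a surface glycoprotein of many progenitor cells, read 4.75, 4.87, 4.60 and 4.54 against 10.36, 10.56, 10.38 and 10.49 (54.1-fold). Grp, which encodes the neuropeptide gastrin-releasing peptide, read 3.67, 3.81, 4.03 and 3.93 against 8.88, 9.07, 8.72 and 9.60 (36.9-fold). Groups that do not overlap were a condition for naming the largest changes, so their separation is no finding.

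The rest were the deubiquitinase genes Usp17lb (42.5-fold) and Usp17la (24.1-fold), the transmembrane gene Tmem92 (42.1-fold), Xkrx (35.5-fold), Spopfm2 (32.2-fold), the zinc finger gene Zfp711 (32.1-fold), Tdpoz8 (32.1-fold), Phf11a (28.7-fold) and the glycoprotein hormone subunit gene Gpha2 (23.5-fold). Across the 15, Hdac1-knockout means lay between 3.11 and 5.64 and double-knockout means between 8.12 and 11.02, with standard errors of 0.078 to 0.435 and limma adjusted p from 1.73e-16 to 1.94e-09. Their difference between the Hdac1 knockout and wild type ran from -0.22 to 0.20. Genes of the Usp17l, Tdpoz, Pramel and Spopfm families have near-identical copies whose probes share sequence, so which copy rose is uncertain; the 3 probe sets named Spopfm2 hold the same values in all 16 arrays.

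**Figure D3:**
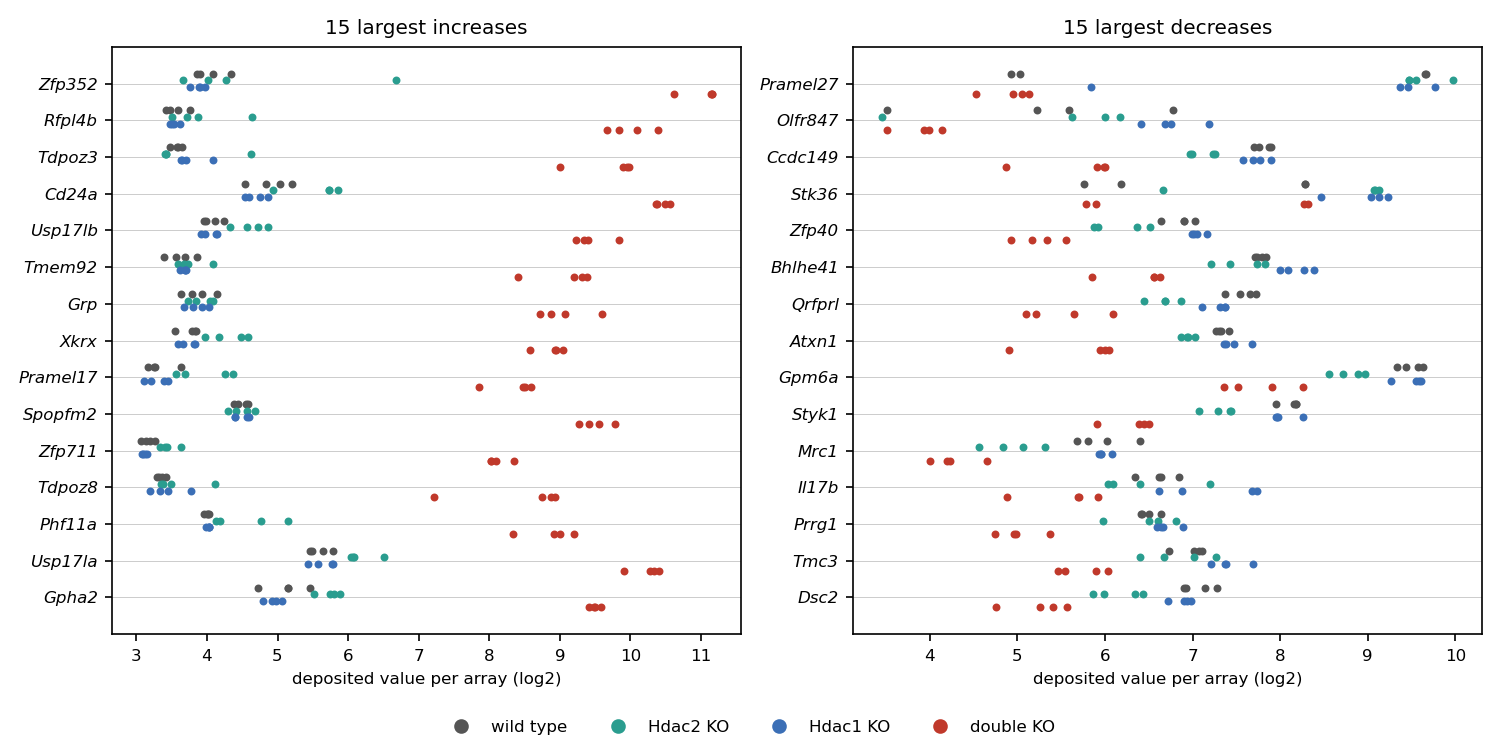
Deposited values (log2, horizontal axis) in every array for the 15 largest increases (left) and the 15 largest decreases (right) between the double and the Hdac1 knockout; each point is an array, coloured by genotype. On the left the double-knockout arrays stand alone above 7, apart from the other 3 genotypes; on the right the shifts are smaller, and Pramel27, Olfr847 and Stk36 have arrays spread over 2 levels within a genotype.

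Decreases were smaller, and the 3 at 4-fold or more were Pramel27, Olfr847 and Ccdc149. Pramel27 read 9.77, 9.36, 5.84 and 9.46 in the Hdac1 knockout and 5.13, 5.05, 4.53 and 4.94 in the double knockout, a fall of 3.69 ± 1.008 (log2, SE; limma adjusted p = 0.00739). Its wild-type arrays were already split, at 9.66, 4.93, 5.03 and 9.65, so low values also occurred where neither gene was deleted. Olfr847, an olfactory receptor gene, read 6.75, 7.18, 6.69 and 6.41 against 3.51, 3.99, 3.93 and 4.14, and its wild-type arrays, with a mean of 5.28, were spread from 3.51 to 6.78.

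Ccdc149, Bhlhe41 and Mrc1 fell as well, and double-knockout replicate 3 was the lowest array in each. Ccdc149 read 7.90, 7.69, 7.77 and 7.58 against 6.00, 5.99, 4.87 and 5.91 (4.12-fold lower; limma adjusted p = 2.16e-07). Bhlhe41, a basic helix-loop-helix repressor of the circadian clock, read 8.09, 8.39, 8.27 and 7.99 against 6.56, 6.62, 5.85 and 6.56 (3.45-fold lower). Mrc1, the macrophage mannose receptor, read 6.08, 5.95, 5.93 and 5.96 against 4.23, 4.65, 4.01 and 4.19 (3.27-fold lower). The groups did not overlap in these 3 genes, as the rule for naming the largest changes required.

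The remaining decreases among the 15 ran from 3.73-fold for Stk36, a kinase, to 3.10-fold for Dsc2, a desmosomal cadherin, and included the membrane glycoprotein Gpm6a (3.33-fold), the ataxin gene Atxn1 (3.36-fold), the kinase-like gene Styk1 (3.31-fold), the zinc finger gene Zfp40 (3.51-fold) and the cytokine gene Il17b (3.20-fold), with Qrfprl, Prrg1 and Tmc3 between 3.20 and 3.44. Stk36 read 8.31, 5.90, 8.27 and 5.78 in the double knockout and passed only narrowly (limma adjusted p = 0.0445). It did not pass without any 1 of the Hdac1-knockout arrays (adjusted p 0.0537 to 0.0906), nor without double-knockout replicate 2 (0.135) or 4 (0.141).

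The 29 gene lists below are read against the shares of all genes, 17.8% higher and 21.1% lower, and the median change of all tested probe sets, -0.01. No test compares a list with other genes. They were drawn up with earlier results of these data known, and a list's count is a description. Counts of 2 or fewer often moved by 1 when an array was left out.

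**Figure D4:**
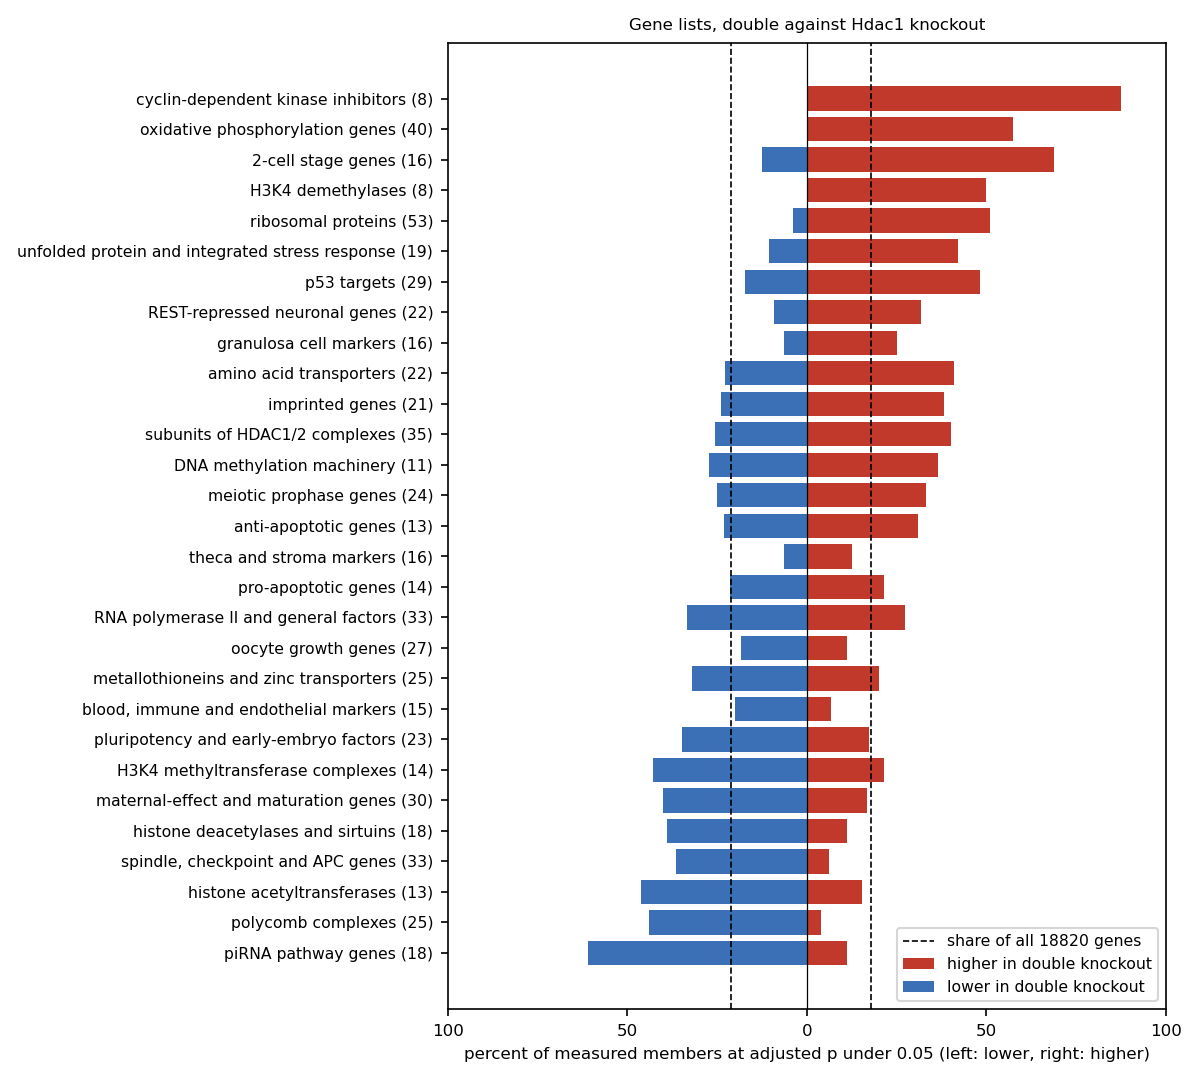
Percent of measured members higher (red, to the right) and lower (blue, to the left) in the double knockout at an adjusted p under 0.05, for 29 gene lists with the number measured in brackets; dashed lines are the shares of all 18820 genes, 17.8% and 21.1%. Cyclin-dependent kinase inhibitors, oxidative phosphorylation and 2-cell genes have the highest shares to the right, and piRNA pathway genes the highest to the left.

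Of 32 names listed for the 2-cell stage, the burst of transcription that marks activation of the embryo's genome, 16 genes were measured. Among these 16, 11 were higher, 2 were lower and 3 missed the threshold, with a median change of 1.97. The listed Zscan4 genes and Duxf3 were not among those measured. Several measured members are Usp17l and Tdpoz copies whose probes share sequence, so the members are not independent. Usp17lc read 4.69, 4.43, 4.77 and 4.78 in the Hdac1 knockout and 7.85, 8.35, 8.30 and 8.16 in the double knockout (11.3-fold). Outside the rule for named genes, and chosen after their values were seen, Spz1, a basic helix-loop-helix gene, rose by 3.62, Usp17ld by 2.00, Tdpoz2 by 1.94 and Tcstv1 by 1.88, while Zfp750 fell by 1.24 and Obox5 by 0.33. In the Hdac2 knockout against wild type 3 of the 16 were higher and 1 lower, against 2.88% and 2.96% of all genes, with a median of 0.04. Pluripotency and early-embryo factors were counted apart: of 23, 4 members passed upward, 8 downward and 11 in neither direction. Klf4 read 6.39, 6.16, 5.86 and 6.12 against 7.82, 7.71, 8.07 and 7.90 (3.34-fold higher), whereas Esrrb and Nr5a2, both orphan nuclear receptors, fell by 1.27 and 1.06 and Klf17 by 0.70.

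The lysine demethylase Kdm5b, which removes methyl groups from lysine 4 of histone H3, had the largest change among chromatin regulators listed. It read 5.08, 5.56, 5.52 and 5.77 in the Hdac1 knockout and 9.92, 9.64, 9.75 and 9.79 in the double knockout, a rise of 4.29 ± 0.171 (log2, SE; 19.6-fold; limma adjusted p = 9.76e-12) with no overlap. Of 8 H3K4 demethylases the test called 4 higher and 0 lower and left 4 uncalled (median 0.13), with 3 higher and 1 lower under median centring. The other rises were Riox1 (0.65, by its brightest probe set and not by 2 dimmer ones), Kdm1a, a CoREST subunit (0.29), and Kdm5a (0.24), which did not pass in 7 of 15 alternatives. Among 14 genes of H3K4 methyltransferase complexes 3 were higher, 6 were lower and 5 missed the threshold, with 1 and 8 under median centring. Kmt2a, the founding member of the MLL family, read 6.35, 6.35, 6.58 and 6.20 against 7.78, 7.99, 8.09 and 7.55 (2.79-fold higher), and Setd1b fell by 0.48, Wdr5 by 0.30 and Setd1a by 0.25.

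The 300-base promoter of Kdm5b, with that of the amino acid transporter Slc38a2 described further on, is printed beside those above because both genes rose more than 16-fold from a low level and differ from them in CG content. The source, strand and capitals are as before, and these were also chosen after the values were seen.
Kdm5b, chr1:134559928-134560227, plus strand: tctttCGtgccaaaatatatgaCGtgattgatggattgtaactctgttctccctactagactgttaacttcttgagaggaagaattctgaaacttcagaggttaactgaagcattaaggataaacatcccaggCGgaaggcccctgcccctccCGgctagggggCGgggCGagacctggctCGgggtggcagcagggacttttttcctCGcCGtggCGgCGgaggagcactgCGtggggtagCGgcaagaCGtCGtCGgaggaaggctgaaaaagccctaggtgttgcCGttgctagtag
Slc38a2, chr15:96699679-96699978, minus strand: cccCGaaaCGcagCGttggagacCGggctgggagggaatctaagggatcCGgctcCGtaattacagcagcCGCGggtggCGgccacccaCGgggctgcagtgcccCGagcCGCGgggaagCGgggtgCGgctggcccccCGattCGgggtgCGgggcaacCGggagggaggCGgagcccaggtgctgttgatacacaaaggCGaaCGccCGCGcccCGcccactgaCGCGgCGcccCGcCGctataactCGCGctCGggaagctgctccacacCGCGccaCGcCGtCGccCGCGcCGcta
Kdm5b has 17 CG dinucleotides and Slc38a2 has 41, and 31.4% and 3.46% of the tabled promoters hold as many or more. Neither contains TATAAGG on either strand. The median is 7 among all tabled promoters and 15 among tested genes that have a promoter in the table. Kdm5b lies near the median of the tested genes and above that of all tabled promoters. The 5 printed promoters were picked after the values were seen, and nothing is read from them about other genes.

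The deacetylase machinery itself shifted moderately. Of 18 deacetylases and sirtuins 2 members passed upward, 7 downward and 9 in neither direction: Hdac8, a class I enzyme outside the corepressor complexes, read 7.96, 7.98, 7.94 and 7.81 against 6.65, 6.92, 6.78 and 7.12 (2.07-fold lower), Sirt4 fell by 0.80 and Sirt7 by 0.46, and Hdac5 rose by 0.68 from a dim level. Among 35 subunits of HDAC1/2 complexes the test called 14 higher and 9 lower and left 12 uncalled. Ing2, a Sin3 subunit that binds methylated histone H3, read 8.66, 8.59, 8.44 and 8.62 against 10.32, 10.12, 10.27 and 10.20 (3.14-fold higher). The NuRD subunit genes Mta2 and Mta1 went opposite ways, by 0.85 and -0.46, with the dimmer second probe set of Mta2 at 4.53 and 4.48. CoREST's Phf21a fell by 1.13, and Rcor2 and Zmym2 rose by 0.93 and 0.45.

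Enzymes that add acetyl groups were examined beside those that remove them: of 13 histone acetyltransferases 2 were higher, 6 were lower and 5 missed the threshold. Kat6b read 9.73, 9.80, 9.75 and 9.88 against 8.63, 8.68, 8.40 and 8.70 (2.29-fold lower), and Kat5 fell by 0.55, Kat2a by 0.53 and Kat6a by 0.46. Hat1 rose by 0.17 and Ncoa1 fell by 0.24; neither passed under every alternative. The count of higher acetyltransferases was 0 with median centring and without Hdac1-knockout replicate 1, 3 with quantile normalization, and 1 without Hdac1-knockout replicate 2 or 3 or any 1 double-knockout array. Polycomb genes, which encode repressive complexes that methylate lysine 27 of histone H3 or ubiquitinate histone H2A, were called with 1 of 25 higher, 11 lower and 13 not passing (median -0.12). Suz12, Eed, Ezh1 and Aebp2, of the methylating complex, fell by 0.46, 0.29, 0.38 and 0.38, and Phc3 rose by 0.49. The higher count of polycomb genes was 3 without double-knockout replicate 2 and 2 without Hdac1-knockout replicate 4.

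DNA methylation genes split. Of 11 measured 4 members passed upward, 3 downward and 4 in neither direction, and with arrays centred on their medians 4 rose and 6 fell. Dnmt3b, a de novo methyltransferase, read 6.95, 7.04, 6.94 and 7.01 in the Hdac1 knockout and 7.82, 7.66, 7.60 and 7.78 in the double knockout (1.65-fold higher). Dnmt3l, the cofactor that oocytes need to set maternal imprints, read 7.46, 7.39, 7.38 and 7.16 against 6.37, 6.37, 5.41 and 6.29 (2.37-fold lower), and the demethylating dioxygenases Tet1 and Tet3 fell by 1.12 and 0.40. Tet1's 2 dimmer probe sets were at 4.38 and 4.84 in the Hdac1 knockout and 4.69 and 5.15 in the double knockout, the opposite direction. Dppa3, which protects maternal methylation after fertilisation, rose by 0.37.

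Imprinted genes, expressed from 1 parental copy, moved both ways: of 21, the test called 8 higher and 5 lower and left 8 uncalled. The 21 include Nckap1, which was matched through the synonym H19 in place of the listed gene H19. H19 itself was therefore not measured, and the count is not one of listed imprinted genes alone. Grb10, a growth restrainer, read 7.29, 7.08, 7.29 and 7.28 against 9.03, 8.86, 9.05 and 8.81 (3.25-fold higher). Slc22a18 rose by 1.57, the growth factor Igf2 by 1.20 and Peg10 by 1.05, and Sgce fell by 0.63. Peg10 was lower in the Hdac2 knockout than in wild type, by 0.51.

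Cyclin-dependent kinase inhibitors, which hold the cell cycle, passed upward in 7 of 8 genes, none passed downward and 1 was left uncalled, with a median change of 0.66. Under median centring, and without Hdac1-knockout replicate 2, 7 passed upward and 1 downward. Cdkn1c, which encodes p57, read 7.26, 7.23, 7.07 and 7.21 in the Hdac1 knockout and 9.12, 8.69, 8.97 and 8.79 in the double knockout (3.25-fold). Cdkn1a, which encodes p21, read 4.35, 4.48, 4.47 and 4.48 against 6.03, 5.76, 6.28 and 5.62 (2.78-fold). Cdkn3 rose by 1.68, Cdkn2c by 0.84, Cdkn1b by 0.38 and Cdkn2a by 0.37. The interaction test described below passed upward for 6 of the 8, beside 2479 of all 21218 probe sets. That test contains the change counted here, so nothing is read from this share.

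Of 29 targets of the tumour suppressor p53, 14 were higher, 5 were lower and 10 missed the threshold, with a median of 0.16. Plk2, a polo-like kinase, read 3.69, 3.81, 3.69 and 3.69 against 5.60, 5.98, 5.35 and 5.53 (3.72-fold), and Plk3 rose by 1.85, the anti-proliferative gene Btg2 by 1.65 and the stress sensor Sesn2 by 0.98. Polk, a translesion DNA polymerase, fell by 1.07. Of 14 pro-apoptotic genes 3 members passed upward, 3 downward and 8 in neither direction, and 5 passed upward without double-knockout replicate 2. Bcl2l11, which encodes Bim, read 7.10, 7.12, 7.13 and 7.03 against 8.23, 8.09, 8.41 and 8.45 (2.30-fold higher), and Pmaip1, which encodes Noxa, rose by 0.98, while Casp8 fell by 0.39 and Apaf1 by 0.38. Of 13 anti-apoptotic genes the test called 4 higher and 3 lower and left 6 uncalled, with 2 and 6 under median centring. Mcl1 and Birc6 rose by 0.31 and 0.59, and Bcl2l1 and Bcl2 fell by 0.36 and 0.45. The dimmer second probe set of Bcl2 changed by -0.11 and did not pass (limma adjusted p = 0.247).

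Genes of the oocyte's own programme followed. Of 27 oocyte growth genes 3 were higher, 5 were lower and 19 missed the threshold, with 2 higher and 12 lower under median centring. Sohlh1, a transcription factor of the earliest follicles, read 5.55, 6.28, 5.91 and 6.24 against 7.55, 6.82, 7.59 and 6.75 (2.27-fold higher), and Figla, which activates the zona genes, fell by 0.48. Of 30 maternal-effect and maturation genes 5 members passed upward, 12 downward and 13 in neither direction, with 4 and 19 under median centring. Pde3a, the phosphodiesterase whose activity lets oocytes resume meiosis, read 10.40, 10.28, 10.18 and 10.22 against 9.50, 9.47, 9.40 and 9.51 (1.74-fold lower). Gpr3, the receptor that keeps oocytes arrested, fell by 0.80, Plat, a dormant maternal mRNA, by 0.43 and Dcp1a by 0.43, and Cdc25b, a phosphatase that triggers resumption, rose by 1.19. Of 33 spindle, checkpoint and anaphase-promoting complex genes the test called 2 higher and 12 lower and left 19 uncalled, Kif11 falling by 0.56, Anapc1 by 0.40 and Plk4 by 0.32 and Fbxo5, which restrains the complex, rising by 0.39.

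The piRNA pathway, which silences transposons in germ cells, had the highest share of lower members of any list: of 18, 11 were lower, 2 were higher and 5 uncalled (median -0.30). Tdrd12 read 11.11, 10.93, 10.97 and 10.97 in the Hdac1 knockout and 10.19, 10.22, 9.99 and 10.20 in the double knockout (1.80-fold lower). Tdrd9, a helicase, fell by 0.71, Henmt1, which methylates piRNA ends, by 0.84, and Piwil1 by 0.96, while Tdrd7 and Mael rose by 0.64 and 0.54. Of 24 meiotic prophase genes 8 were higher, 6 were lower and 10 missed the threshold, with 8 and 10 under median centring. Meioc, which sustains meiotic prophase, read 3.87, 4.25, 4.11 and 3.96 against 7.58, 7.05, 7.57 and 7.36 (10.2-fold higher), Stra8, the gatekeeper of meiotic entry, rose by 1.60 from near the floor and Sycp3, of the synaptonemal complex, by 0.75. Ythdc2, a binding partner of Meioc's product, fell by 0.84 and Mlh3 by 0.87.

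Amino acid transporters included 2 of the larger increases. Slc38a2, a sodium-coupled carrier of neutral amino acids whose promoter is printed above, read 4.52, 5.35, 4.86 and 5.08 in the Hdac1 knockout and 9.41, 8.69, 9.46 and 9.09 in the double knockout (18.5-fold). Slc1a1, a glutamate and aspartate carrier, read 4.90, 5.01, 5.13 and 4.57 against 8.13, 7.67, 7.88 and 7.94 (8.03-fold). Of 22 measured 9 members passed upward, 5 downward and 8 in neither direction. Slc7a3 rose by 1.34 and Slc7a5, the carrier of large neutral amino acids, by 0.78, and Slc7a11, the cystine carrier, fell by 0.91.

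In the unfolded protein and integrated stress response 8 of 19 genes rose, 2 fell and 9 did not pass. Atf3, a stress-induced transcription factor, read 5.05, 4.49, 4.97 and 4.94 against 8.19, 7.34, 7.66 and 6.68 (6.08-fold), and Dnajb9, a chaperone of the endoplasmic reticulum, 7.04, 7.14, 7.04 and 7.35 against 9.33, 9.58, 9.43 and 9.33 (4.85-fold). Asns rose by 0.67 and Ppp1r15a by 0.50, and Ern1, a sensor of unfolded proteins, fell by 0.24.

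Genes for ribosomes, which make protein, and for the mitochondrial respiratory chain had more higher than lower calls, and named changes were small. Of 53 ribosomal protein genes the test called 27 higher and 2 lower and left 24 uncalled (median 0.18), and of 40 oxidative phosphorylation genes 23 were higher, 0 were lower and 17 missed the threshold (median 0.21). Rpl9 read 9.28, 9.26, 9.35 and 9.30 against 9.80, 9.81, 9.79 and 9.77 (1.41-fold). Ndufa5, a complex I subunit, read 10.63, 10.66, 10.66 and 10.62 against 11.14, 11.14, 11.22 and 11.22 (1.45-fold). With arrays centred on their medians 14 ribosomal genes rose and 4 fell, and 15 oxidative phosphorylation genes rose and 3 fell. Ribosomal protein genes have many processed copies, and each is represented here by its brightest probe set.

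Of 33 genes for RNA polymerase II and general factors 9 members passed upward, 11 downward and 13 in neither direction, with 3 higher and 14 lower under median centring and 4 and 7 on the 8 arrays alone. Polr2a, the largest subunit, read 9.28, 9.23, 9.20 and 9.35 against 10.01, 9.79, 10.04 and 9.89 (1.59-fold higher). Tbpl2, the oocyte's TATA-binding protein paralogue, rose by 0.35 and the elongation kinase Cdk9 by 0.60, and Gtf2h3, Gtf2e1 and Supt6 fell by 0.63, 0.45 and 0.34. Without Hdac1-knockout replicate 2 the number higher was 4, and without double-knockout replicate 3 it was 5.

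Neuronal genes that the repressor REST silences elsewhere passed upward in 7 of 22 genes and downward in 2, leaving 13 uncalled, with 5 higher and 8 lower under median centring; 19 of the 22 were below the median of tested probe sets. Nefm, a neurofilament gene, read 3.54, 3.36, 3.49 and 3.58 against 6.70, 6.56, 6.19 and 6.36 (7.77-fold), and Calb1, a calcium-binding protein, 6.61, 6.72, 6.96 and 6.89 against 8.26, 8.49, 8.31 and 8.53 (3.04-fold). Nefl rose by 0.92 and Syn1 by 0.69.

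Metallothioneins and zinc transporters, which buffer and move metal ions, were called both ways. The metal-binding protein gene Mt1 read 10.85, 11.30, 11.30 and 11.12 in the Hdac1 knockout and 10.99, 11.14, 11.11 and 11.05 in the double knockout, which overlapped and did not differ by the test (-0.07 ± 0.089, log2, SE; limma adjusted p = 0.57; exact permutation p = 0.571). Its means were 6.51 in wild type and 11.06 in the Hdac2 knockout, so Mt1 was high in each of the 3 knockouts. Of 25 members the test called 5 higher and 8 lower and left 12 uncalled, with 2 and 10 under median centring and 3 higher without Hdac1-knockout replicate 2 or double-knockout replicate 3, Mt2 rising by 0.69 and Slc30a7 falling by 0.50.

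The wider marker lists of other ovarian cells moved as follows. Of 16 granulosa genes 4 were higher, 1 was lower and 11 missed the threshold, with 4 and 4 under median centring. The keratin genes Krt8 and Krt18 rose by 1.58 and 0.39, the connexin gene Gja1 by 0.90 and Wt1 by 0.56. Of 16 theca and stroma genes 2 members passed upward, 1 downward and 13 in neither direction, and the fall was Myh11, a smooth muscle myosin, at 9.03, 9.11, 9.11 and 9.10 against 8.05, 8.36, 8.19 and 8.19. Of 15 blood, immune and endothelial genes the test called 1 higher and 3 lower and left 11 uncalled. Pecam1, an adhesion molecule of endothelial cells, read 8.69, 8.53, 8.61 and 8.40 against 7.32, 7.03, 6.62 and 7.21 (2.85-fold lower).

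The genes that already differed between the Hdac1 knockout and wild type were few, 12 of 18820 (0.0638%), Hdac1 itself and Mt1 among them. Rnase6, a ribonuclease with a wild-type mean of 9.15, read 5.42, 4.93, 4.70 and 4.79 in the Hdac1 knockout and 7.97, 5.61, 8.33 and 5.39 in the double knockout. A pair of double-knockout arrays was high and the other pair was close to the Hdac1 knockout (limma adjusted p = 0.00694). Enpp3 rose by 1.54 above a wild-type mean of 5.62, from 4.42, 4.78, 4.76 and 4.82 to 6.02, 6.55, 5.94 and 6.42, and Wasf1 rose by 0.69, Slc6a20a by 0.71 and Prep by 0.25, the last not passing in 6 of 15 alternatives. Ostm1 fell by 0.61, back toward wild type, and Dtwd2, Adgrg6 and Poglut2 by 0.42, 0.29 and 0.24. Dvl1 (-0.19, limma adjusted p = 0.0648) did not pass.

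The loss of Hdac2 was then read with Hdac1 present, although the Cre status of the wild-type mice is not given. A difference in Cre therefore cannot be told apart from the loss of Hdac2 in this change or in the interaction. The comparison is the Hdac2 knockout against wild type, which shares no array with the comparison above. There 1187 probe sets differed (5.59%), 606 higher (2.86%) and 581 lower (2.74%), and 909 differed in both, 11.1% of the 8220 and 76.6% of the 1187, of which 849 moved the same way and 60 opposite ways. Across the 21218 probe sets, which are not independent replicates, the changes correlated at a Pearson r of 0.39 (Spearman 0.32), and the SD of the changes was 0.51 without Hdac1 and 0.20 with it. The 623 probe sets chosen as at least 2-fold higher without Hdac1 had a median change of 0.21 with Hdac1 present, and 154 of them were called higher there. The 292 chosen as at least 2-fold lower had a median of -0.28 there, and 93 were called lower. Their medians in the comparison that chose them, 1.54 and -1.20, are larger by selection.

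The difference between both changes was tested as an interaction term in the same limma fit, and 4939 probe sets passed (23.3%). In 2479 the change on losing Hdac2 was more positive without Hdac1 than with it, and in 2460 it was more negative. The sign alone does not say which genotype holds the gap. Of the 8220 that changed, 4556 (55.4%) passed the interaction test, as did 577 of the 623, 242 of the 292 and all 15 of the largest increases. The interaction contains the difference by which these probe sets were chosen, so a high share is built in and nothing is read from it. In the arrays that entered that choice only through the shared estimate of spread, the 15 had a median change of 0.54 on losing Hdac2 with Hdac1 present. Of these 15, 6 were called. Kdm5b changed by 1.32 with Hdac1 present and by 4.29 without it (limma interaction adjusted p = 2.56e-07), and Slc38a2 by 2.03 and 4.21 (0.00465). Calb1, at 1.08 and 1.60, did not pass (0.0986). Mt1 went the other way, at 4.55 and -0.07 (6.08e-13), and Gpr3 rose by 0.38 with Hdac1 present and fell by 0.80 without it (2.74e-07).

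**Figure D5:**
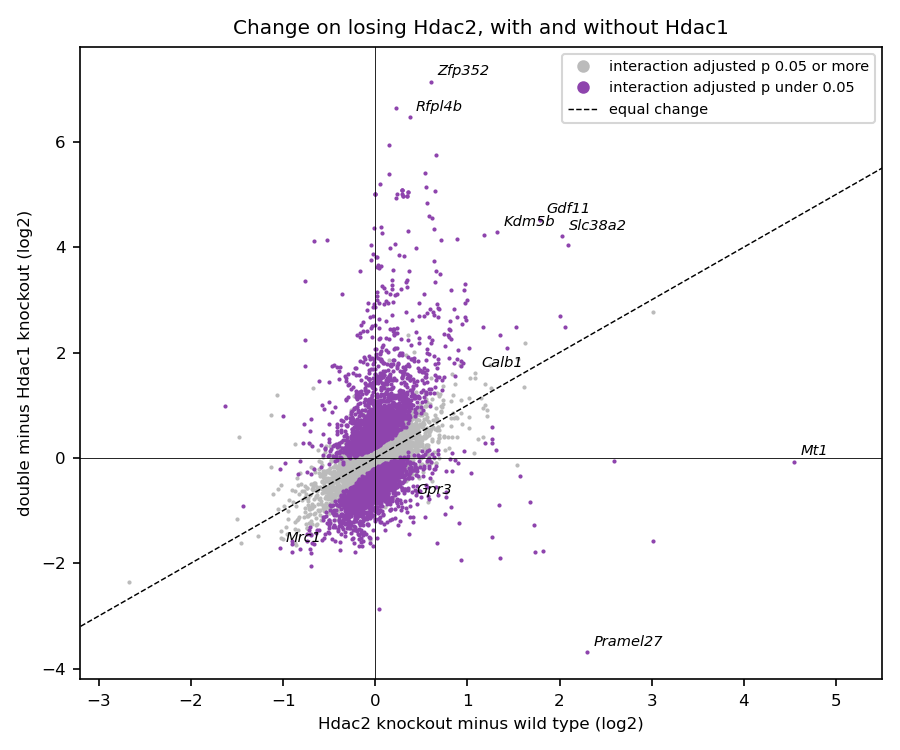
Change on losing Hdac2 without Hdac1 (double minus Hdac1 knockout, log2, vertical axis) against the change with Hdac1 present (Hdac2 knockout minus wild type, log2, horizontal axis) for 21218 probe sets; purple points passed the interaction test (4939) and the dashed line marks equal change. Zfp352 lies at 0.60 and Rfpl4b at 0.37 on the horizontal axis, Kdm5b and Slc38a2 well above the line, and Mt1 near 0 on the vertical axis.

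Changed genes lay on every chromosome. Apart from the Y chromosome, where 1 of 37 probe sets was called, the share called ran from 34.5% on chromosome 7 to 43.3% on chromosome 12. The X chromosome had 25.8% of its 784 probe sets higher and 13.8% lower, and held 20 of the 185 at 4-fold or more (10.8%, against 3.69% of all tested). Chromosome 7 held 27 of the 185 from 17 genes (14.6%, against 8.47% of all tested), and chromosome 3 held 15 from 13 genes (8.11%, against 4.71%). Of the probe sets of the 50 genes either side of Hdac1 on chromosome 4, 33 of 91 were called (36.3%), and around Hdac2 on chromosome 10, 46 of 110 (41.8%), 15 higher and 31 lower, beside the 38.7% of all.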

How the data were processed

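Expression was measured with 16 Affymetrix GeneChip Mouse 1.1 ST arrays, 4 per genotype, each on amplified RNA of 80 oocytes. The values used are the authors' deposited log2 values, 1 per probe set and array; the submitters' processing notes name MAS5, with no version, while no source used here gives the log base, the build or the steps behind the values. Base 2 was inferred: natural logs would put the brightest probe set at an intensity of 394439, above the 65536 steps of a scanner, and base 2 puts it at 7566. No further normalization was applied. Precision is limited by the number of arrays, and the p-values measure the spread between these pools of oocytes.

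Of 35556 probe sets, 21218 have exactly 1 gene symbol and were tested, 1881 have several and 12457 none. limma 3.58.1 (R 4.3.3) was fitted to all 16 arrays with a mean per genotype; the double minus the Hdac1 knockout was tested two-sided by eBayes, with Benjamini-Hochberg adjustment over the 21218 and a threshold of 0.05. The interaction was the same difference minus that of the Hdac2 knockout and wild type. Single values were also tested by exact permutation over the 70 arrangements of 8 arrays. A gene stands for its brightest probe set. The fit was tested on simulated data.

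Named genes are Hdac1 and Hdac2; the 15 largest changes each way with separated arrays, a higher-group mean above the median and no provisional symbol; up to 6 changed genes per list by adjusted p; up to 5 interaction genes each way; and genes called between the Hdac1 knockout and wild type. Any others were chosen after their values were seen. The members and lists were chosen with earlier results of these data known. Alternatives were median centring, quantile normalization, leaving out dim probe sets or each array, the 8 arrays alone, a replicate block, array weights, an intensity trend, and other thresholds. Same-numbered arrays of both groups did not deviate together (correlations of -0.058 to 0.033), so numbers were not used to pair arrays. No batch is given.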

Additional observations from a re-analysis of the deposited data

Results flagged for a closer look

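Groups of 4 arrays were examined for an array that stands apart from the other three by Dixon's criterion, for every named gene in the Hdac1 and double knockouts. Of 406 such groups 33 held one, and chance gives about 1 in 20. Double-knockout replicate 3 accounts for 9 of the 33, more than any other array. Hdac1-knockout replicate 1 stood apart for Styk1, at 8.26 against 7.95 to 7.98 in the other arrays, Cdkn1a at 4.35 against 4.47 to 4.48, Figla at 7.79 against 8.07 to 8.12, Myh11 at 9.03 against 9.10 to 9.11 and Enpp3 at 4.42 against 4.76 to 4.82. Hdac1-knockout replicate 2 stood apart for Hdac2 at 11.05 against 11.14 to 11.16, Tdpoz3 at 4.08 against 3.64 to 3.70, Sirt7 at 6.67 against 6.46 to 6.50, Aebp2 at 7.88 against 8.03 to 8.05, Plk2 at 3.81 against 3.69 and Grb10 at 7.08 against 7.28 to 7.29. Hdac1-knockout replicate 3 stood apart for Pramel27 at 5.84 against 9.36 to 9.77 and Manba at 3.84 against 7.49 to 7.79. Hdac1-knockout replicate 4 stood apart for Gpm6a at 9.27 against 9.55 to 9.60, Gtf2e1 at 7.16 against 7.15, Cyc1 at 7.85 against 7.99 to 8.01 and Kif11 at 10.35 against 10.08 to 10.11. Double-knockout replicate 1 stood apart for Zfp352 at 10.61 against 11.14 to 11.16, Tdpoz3 at 9.001 against 9.90 to 9.98, Pramel17 at 7.85 against 8.47 to 8.59, Manba at 7.95 against 4.11 to 4.25 and Adgrg6 at 3.42 against 3.55 to 3.57. Double-knockout replicate 2 stood apart for Cdk9 at 8.48 against 8.65 to 8.66. Double-knockout replicate 3 stood apart for Tdpoz8 at 7.22 against 8.74 to 8.94, Ccdc149 at 4.87 against 5.91 to 6.00, Bhlhe41 at 5.85 against 6.56 to 6.62, Atxn1 at 4.91 against 5.94 to 6.05, Dnmt3l at 5.41 against 6.29 to 6.37, Tdrd12 at 9.99 against 10.19 to 10.22, Esrrb at 4.97 against 5.61 to 5.67, Kif11 at 9.49 against 9.63 to 9.64 and Gja1 at 6.83 against 6.23 to 6.28. Double-knockout replicate 4 stood apart for Slc7a3 at 5.33 against 4.36 to 4.52.

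The change on losing Hdac2 differed between oocytes without and with Hdac1 for 4939 probe sets by the interaction test. The 5 named genes with the largest excess without Hdac1 were Zfp352 (6.54, log2), Rfpl4b (6.09), Tdpoz3 (5.79), Tmem92 (5.25) and Grp (5.16). The 5 with the largest shortfall were Pramel27 (-5.99), Mt1 (-4.62), the lysosomal mannosidase gene Manba (-4.59), Tceanc2 (-3.58) and Stk36 (-3.25). For Mt1 the gap lies in wild type, the single genotype with a low level. Pramel27, Manba, Tceanc2 and Stk36 each had arrays at 2 levels within a genotype. Manba did not pass between the double and the Hdac1 knockout (-1.57, limma adjusted p = 0.265), nor without Hdac1-knockout replicate 3 (-2.53, adjusted p = 0.0535) or double-knockout replicate 1 (-2.51, adjusted p = 0.0546).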

How the results depend on the processing

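The count of 8220 changed probe sets stayed within 1.5 times under every alternative but 1: with a fold of at least 1.4 required it was 3518. It was 9793 with median centring, 8503 with quantile normalization, 6627 of 10609 without dim probe sets, 7467 on the 8 arrays alone and 6277 at an adjusted p under 0.01. Without 1 array it ran from 7612 to 7906. The replicate block gave 8072, of which 7883 were among the 8220; the labels number the replicates but tie no numbers to shared animals, and 0 of the 4 arrays correlated best with its own number. Higher calls were 48.2% of calls, 43.5% with quantile normalization and 29.5% with median centring. The interaction count ran from 4458, without Hdac1-knockout replicate 2, to 5634 with median centring, and was 4667 with the replicate block. Of 202 named genes, 189 kept their side of the threshold in all of up to 15 alternatives each, 12 lost it in at least 1, 1 (Dvl1) gained it in 5, and none changed direction while called. The 12 are Stk36, Ncoa1, Hat1, Kdm5a, Bbc3, Bik, Birc5, Acta2, Cldn5, Alas2, Tceanc2 and Prep; the cause was not tested. Metallothionein and zinc genes called higher went from 5 to 3 without Hdac1-knockout replicate 2 or double-knockout replicate 3. Signal near the floor limits folds from it.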

Other observations

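Some genes, chosen after their values were seen, had arrays at 2 levels within a genotype. On chromosome 4, Dhrs3, a retinal reductase gene, read 7.42, 7.41, 4.82 and 7.62 in the Hdac1 knockout, 5.37, 5.30, 5.56 and 5.03 in the double knockout and 7.34, 4.78, 4.71 and 7.10 in wild type (limma adjusted p = 0.0649 between the knockouts). Its low arrays were those in which Pramel27, on the same chromosome, was low. On chromosome 7, Zfp111 read 9.29, 8.94, 6.94 and 6.96 in the double knockout, Zfp109 read 8.45, 8.26, 6.05 and 5.97, and Psg20, by its brighter probe set, read 8.01, 7.99, 6.45 and 6.91. Double-knockout replicates 3 and 4 were low in all 3 genes. Arid5b, a chromatin gene, read 9.77, 6.25, 4.78 and 9.64 in the double knockout and 9.83 to 10.17 in the Hdac1 knockout. The SD over 4 arrays exceeded 1 for 16 probe sets in the Hdac1 knockout and for 18 in the double knockout, with 4 in both, against median SDs of 0.10 and 0.11.

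Opposite calls for the loss of Hdac2 without and with Hdac1 were seen for 60 probe sets, and those described here were chosen after their values were seen. Klk7, a serine protease gene, rose by 3.12 without Hdac1 and fell by 0.36 with it, Rgn, a calcium-binding protein gene, rose by 2.24 and fell by 0.77, and Pnp, a purine salvage enzyme gene, rose by 1.45 and fell by 0.61. Cacng7, a channel subunit gene, changed by -1.27 without Hdac1 and by 1.72 with it.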
